A study of Mus musculus with 6 samples.

Results

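Costimulatory receptors of the tumour necrosis factor (TNF) receptor family were followed by RNA sequencing in mouse T cells activated with or without urolithin A. The set was taken by gene symbol and holds 8 genes of the 18828 in the deposited table, namely Tnfrsf4, Tnfrsf9, Tnfrsf18, Cd27, Tnfrsf1b, Tnfrsf8, Tnfrsf25 and Tnfrsf14. All 8 were among the 14444 genes tested. Both groups were splenic T cells of wild-type FVB mice, an inbred laboratory strain, and both were activated for 48 h with beads bearing antibodies against CD3 and CD28. One group received 50 µM urolithin A along with the beads and the other DMSO, the solvent. Urolithin A is a gut bacterial product of plant ellagitannins. Each group had 3 libraries, lettered a to c. The labels give no age or sex of the mice. Whether a letter stands for an animal or a culture is not labelled either, so a p-value here measures variation among these samples, and that variation may be technical.

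TNF receptor family members are membrane proteins that a trimeric ligand of the TNF family brings together. Their tails recruit TRAF adaptor proteins, which switch on the NF-kB and stress kinase pathways. On T cells these receptors act after the antigen receptor and CD28 have been engaged and sustain division, survival and cytokine production. Cd27 and Tnfrsf14, which encode CD27 and HVEM, are known to be present on naive T cells. Tnfrsf4, Tnfrsf9, Tnfrsf18 and Tnfrsf8, which encode OX40, 4-1BB, GITR and CD30, are known to be induced by activation. Regulatory T cells also carry several of them, among them GITR, OX40 and TNFR2, the product of Tnfrsf1b.

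Total counts lay between 12738059 and 19081219 per library. Rn18s, for 18S ribosomal RNA, made up 17.6% of counts in DMSO library b and 3.97% in urolithin A library a, against 0.0687% to 0.887% in the other 4. The T cell markers summed to 2391 to 2537 CPM with DMSO and 2402 to 2612 CPM with urolithin A. CPM stands for counts per 1e6 of a library's total in tested genes, after scaling by trimmed means of M values. The 11 myeloid and dendritic cell markers in the table summed to 13.3 to 15.3 and 21.1 to 22.2 CPM. In these bulk samples fewer cells of a type and less RNA per cell cannot be told apart.

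The 8 receptor genes divided by direction. CD30, 4-1BB and TNFR2 transcripts fell with urolithin A, HVEM and CD27 transcripts rose, and those of OX40, GITR and DR3 (Tnfrsf25) did not pass the test. So 5 of 8 passed, 3 lower and 2 higher, at a Benjamini-Hochberg (BH) adjusted p under 0.05 over all genes tested (limma voom). Of all 14444 genes 33.7% passed, 17.7% higher and 16.0% lower. DMSO and urolithin A values were fully separate for 5 of the 8 receptors, as they were for 46.8% of all genes. The receptors' median log2 fold change was -0.16, with a range from -1.64 to 0.67, while the median of all genes was 0.01. The plots of CPM by library and of the fitted changes give all 8.

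**Figure D1:**
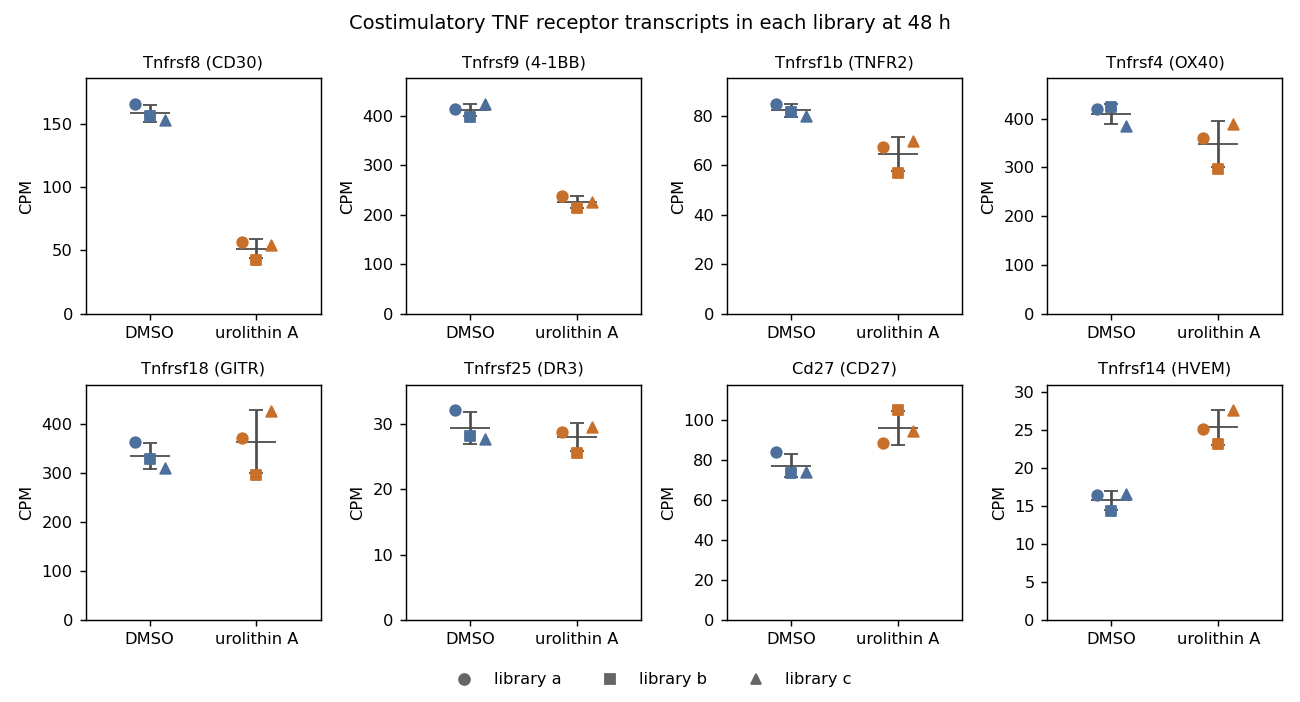
Level of each receptor transcript in CPM (y axis, from 0) in the 3 DMSO and the 3 urolithin A libraries, with one point per library and the mean ± SD as bars. The groups do not overlap for Tnfrsf8, Tnfrsf9, Tnfrsf1b, Cd27 and Tnfrsf14, and they overlap for Tnfrsf4, Tnfrsf18 and Tnfrsf25.

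**Figure D2:**
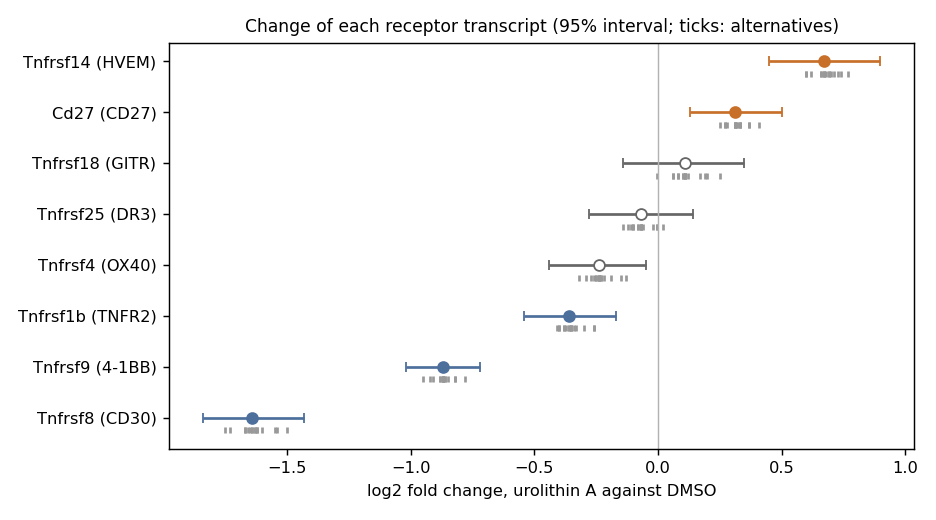
Log2 fold change of urolithin A against DMSO (x axis) for each receptor with its 95% interval, filled where the adjusted p was under 0.05, and as grey ticks the values under 16 alternative fits. Tnfrsf8 at -1.64 and Tnfrsf14 at 0.67 mark the ends of the range, and the ticks of Tnfrsf18 and Tnfrsf25 lie on both sides of 0.

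The sequences before the start sites of the receptors that moved most in each direction are given here, since receptors of this family are known targets of the pathways that T cell activation switches on. They are the 250 bases before a RefSeq start site on GRCm38.p6, 5′ to 3′ on the strand of the gene. Capitals mark matches to 4 short motifs searched on both strands, GGG with TTTCC 2 bases further on for NF-kB, TGANTCA for AP-1, GGAAAA for NFAT and TGTGGT for RUNX. The Tnfrsf9 sequence is that of the downstream of 2 RefSeq start sites, chr4:150927749-150927998 on the plus strand. That of Tnfrsf8 is chr4:145315165-145315414 and that of Tnfrsf14 is chr4:154928078-154928327, both on the minus strand.
Tnfrsf8: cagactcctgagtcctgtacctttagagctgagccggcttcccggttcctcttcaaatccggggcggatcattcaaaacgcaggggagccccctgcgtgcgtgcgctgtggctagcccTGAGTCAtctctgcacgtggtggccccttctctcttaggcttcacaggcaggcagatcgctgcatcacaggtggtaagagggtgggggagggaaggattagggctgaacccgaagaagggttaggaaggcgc
Tnfrsf9: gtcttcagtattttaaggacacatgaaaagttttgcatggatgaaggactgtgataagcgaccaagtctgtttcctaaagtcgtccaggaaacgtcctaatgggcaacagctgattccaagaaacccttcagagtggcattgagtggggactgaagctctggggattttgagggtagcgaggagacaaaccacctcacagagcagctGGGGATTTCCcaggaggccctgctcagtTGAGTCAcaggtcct
Tnfrsf14: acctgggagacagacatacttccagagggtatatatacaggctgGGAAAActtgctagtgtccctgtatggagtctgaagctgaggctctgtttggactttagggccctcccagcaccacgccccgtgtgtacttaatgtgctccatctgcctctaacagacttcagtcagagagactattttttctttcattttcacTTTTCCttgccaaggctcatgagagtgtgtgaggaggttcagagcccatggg

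Tnfrsf8 held one AP-1 match, TGAGTCA, from 132 to 126 bases before the start. Tnfrsf9 held an NF-kB match, GGGGATTTCC, from 43 to 34 bases before the start and an AP-1 match, again TGAGTCA, from 15 to 9 bases before it. The upstream Tnfrsf9 window, chr4:150919905-150920154, held neither and had one NFAT match. In Tnfrsf14 the capitals were NFAT letters on either strand, at 206 to 201 and 52 to 47 bases before the start, with no match to the other 3 motifs. RefSeq gave 10 start sites for the 8 receptors, and 2 of these 10 windows held the NF-kB letters (Tnfrsf9 and Tnfrsf25) and 2 the AP-1 letters (Tnfrsf9 and Tnfrsf8). NFAT letters were in 5 of the 10 (Tnfrsf9 upstream, Tnfrsf18, Cd27, Tnfrsf25 and Tnfrsf14) and RUNX letters in 1 (Tnfrsf25). In the Tnfrsf25 window the NF-kB and NFAT letters overlapped. Among 32851 windows of the same length before RefSeq start sites, 1.41% held the NF-kB letters, 6.75% AP-1, 20.4% NFAT and 14.0% RUNX. For Cd27 and Tnfrsf4 the bases just after the RefSeq start were not found in a transcript, so their windows are less certain. Only letters were matched, and binding was not measured.

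Tnfrsf8 encodes CD30, a receptor of activated T cells that is also known as a marker of Hodgkin lymphoma. Its transcript was at 166, 156 and 153 CPM in DMSO libraries a to c and at 56.6, 42.7 and 54.4 CPM in urolithin A libraries a to c. Every urolithin A value lay far below every DMSO value. The mean fell 3.09-fold, from 158 ± 7.04 to 51.3 ± 7.46 CPM (SD, n = 3). The log2 fold change was -1.64 ± 0.10 (SE, limma BH-adjusted p = 1.84e-08), and Tnfrsf8 passed in all 16 alternative fits, between -1.75 and -1.50. Tnfrsf8 (ENSMUSG00000028602) lay on chromosome 4 from 144993707 to 145041734, minus strand, in the table's coordinates, which are not those of the mm10 annotation and whose build no source used here names.

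Tnfrsf9 encodes 4-1BB, which supports expansion and survival above all of CD8 T cells. It was at 414, 398 and 423 CPM with DMSO and at 238, 213 and 225 CPM with urolithin A. The groups were separated by more than the spread within either. The DMSO mean of 411 ± 12.7 CPM was 1.83 times the urolithin A mean of 225 ± 12.8 CPM (log2 fold change -0.87 ± 0.07, limma BH-adjusted p = 3.52e-07). Tnfrsf9 passed in all 16 alternative fits, between -0.95 and -0.78. It had the smallest relative spread of the 8 receptors with urolithin A, a coefficient of variation of 5.68%. Tnfrsf9 (ENSMUSG00000028965) lay on chromosome 4 from 150999019 to 151030559, plus strand. It shared 28781 bases with Camta1 on the other strand, which had a mean of 121 counts with DMSO and 99 with urolithin A, against 2982 to 7973 counts of Tnfrsf9. The strand setting of the counting is not known, so reads of a receptor and of a gene opposite it cannot be told apart.

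Tnfrsf1b encodes TNFR2, the TNF receptor that lacks a death domain. Its level was 84.9, 81.5 and 80.0 CPM with DMSO and 67.2, 56.7 and 69.7 CPM with urolithin A. All 3 urolithin A values were lower, by less than for CD30 or 4-1BB. The mean was 82.2 ± 2.53 CPM and then 64.5 ± 6.87 CPM, 1.27-fold lower (change on the log2 scale -0.36 ± 0.09, limma BH-adjusted p = 0.00522). With libraries scaled to their total count alone the value was -0.26 and the call was lost (adjusted p = 0.195, over all 16 alternatives 0.00165 to 0.195). Tnfrsf1b (ENSMUSG00000028599) lay on chromosome 4 from 144940033 to 144973440, minus strand, 20266 bases from Tnfrsf8.

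Tnfrsf14 encodes HVEM, which binds the TNF family ligand LIGHT and also the inhibitory receptors BTLA and CD160. It was at 16.4, 14.3 and 16.6 CPM with DMSO and at 25.2, 23.2 and 27.7 CPM with urolithin A. The lowest urolithin A value was above the highest DMSO value. The mean rose 1.61-fold, from 15.7 ± 1.23 to 25.4 ± 2.25 CPM (change on the log2 scale 0.67 ± 0.11, limma BH-adjusted p = 2.33e-04), on 206 to 484 counts per library. Tnfrsf14 passed in all 16 alternative fits, between 0.60 and 0.77. Tnfrsf14 (ENSMUSG00000042333) lay on chromosome 4 from 155006390 to 155013020, minus strand.

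Cd27 encodes CD27, a receptor of naive and memory T cells whose ligand is CD70. It was at 83.7, 73.6 and 73.9 CPM with DMSO and at 88.4, 105 and 94.2 CPM with urolithin A. The groups came close, with DMSO library a at 83.7 and urolithin A library a at 88.4 CPM. The mean rose 1.25-fold, from 77.1 ± 5.71 to 96.0 ± 8.64 CPM (change on the log2 scale 0.31 ± 0.09, limma BH-adjusted p = 0.0109). Cd27 missed the threshold without DMSO library b (adjusted p = 0.0854), without DMSO library c (0.0511) and without both DMSO b and urolithin A a (0.078), while the log2 fold change stayed between 0.25 and 0.41 over 16 alternatives. Cd27 (ENSMUSG00000030336) was the one receptor off chromosome 4, on chromosome 6 from 125209585 to 125213973, minus strand, and it lay wholly within Vamp1 on the other strand, which had a mean of 334 and 331 counts in the 2 groups. CD27 and HVEM are also present on B cells. Of the 8 B cell markers 4 were higher and none lower, while 17.7% of all genes were higher and 16.0% lower. Their summed level was 164 to 180 CPM with DMSO and 207 to 251 CPM with urolithin A. Ighm made 156 ± 9.32 and 213 ± 21.2 CPM of it, and Cd79b was higher too (0.49 ± 0.14). Cd79b missed the threshold in 3 of 16 alternatives. Blnk, another of the 4 higher markers, had 6 to 10 counts per library with DMSO and 16 to 20 with urolithin A. It reached the count minimum in the urolithin A libraries only, so its test rests on their being high. Cd22 (-0.25 ± 0.36) and Pax5 (0.41 ± 0.34) were among the 4 markers not called. The part of B cells in the rise of Cd27 and Tnfrsf14 was not tested.

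Tnfrsf4 encodes OX40, which prolongs the response of activated CD4 T cells. It was at 419, 425 and 386 CPM with DMSO and at 360, 297 and 389 CPM with urolithin A. Urolithin A library c lay within the DMSO range and the other 2 below it. The means were 410 ± 21.1 and 349 ± 47.1 CPM. The log2 fold change of -0.24 ± 0.09 (95% interval -0.44 to -0.05) missed the threshold after adjustment (limma BH-adjusted p = 0.0538). Tnfrsf4 passed in 3 of 16 alternatives, without urolithin A library c (-0.32, adjusted p = 0.0134), with sample quality weights (-0.19, 0.029) and with no filter (-0.25, 0.0478), and its adjusted p ran from 0.0134 to 0.482 over all 16.

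Tnfrsf18 encodes GITR, which is high on regulatory T cells and is induced on others by activation. It was at 363, 329 and 310 CPM with DMSO and at 370, 296 and 425 CPM with urolithin A, so that the urolithin A values lay on both sides of the DMSO values. Its coefficient of variation with urolithin A, 17.8%, was the largest of the 8 receptors. The log2 fold change was 0.11 ± 0.11 (95% interval -0.14 to 0.35, limma BH-adjusted p = 0.499). Single libraries moved this value in opposite directions. With urolithin A library b left out Tnfrsf18 was 0.25 higher and passed (limma BH-adjusted p = 0.0054), and with library c left out the value was -0.004 (0.982). The antisense gene Gm16008 covered all 2732 bases of Tnfrsf18 in the table with a mean of 141 and 142 counts in the 2 groups.

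Tnfrsf25 encodes DR3, a receptor with a death domain that is known to costimulate T cells. It was at 32.2, 28.2 and 27.7 CPM with DMSO and at 28.8, 25.6 and 29.6 CPM with urolithin A. The groups overlapped, and the log2 fold change was -0.07 ± 0.10 (95% interval -0.28 to 0.14, limma BH-adjusted p = 0.612). Tnfrsf25 passed in none of the 16 alternatives, where its value ran from -0.14 to 0.02, the lowest adjusted p was 0.491 and the unadjusted p of the reported fit was 0.479.

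To set the receptors against each other, levels were taken as CPM per kb of exon, with exon lengths of 1365 to 3818 bases from the GENCODE M21 annotation by gene ID. With DMSO the order was Tnfrsf4 at 300 ± 15.5, Tnfrsf18 at 219 ± 17.6 and Tnfrsf9 at 151 ± 4.68 CPM per kb. Tnfrsf8 followed at 45.7 ± 2.04, Cd27 at 33.1 ± 2.45, Tnfrsf1b at 21.5 ± 0.663, Tnfrsf25 at 12.9 ± 1.08 and Tnfrsf14 at 11.0 ± 0.856 CPM per kb. No neighbours in that order overlapped. With urolithin A OX40 and GITR, at 256 ± 34.5 and 239 ± 42.5 CPM per kb, overlapped. Tnfrsf9 followed at 82.7 ± 4.69 and then Cd27 at 41.2 ± 3.71 CPM per kb. Tnfrsf14, Tnfrsf1b, Tnfrsf8 and Tnfrsf25 then followed at 17.7 ± 1.57, 16.9 ± 1.80, 14.8 ± 2.16 and 12.3 ± 0.929 CPM per kb, each overlapping the next. By mean, CD30 thus stood above CD27, TNFR2 and HVEM with DMSO and below them with urolithin A, and HVEM was last with DMSO only.

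Summed over the 8 receptors, the level was 829, 793 and 762 CPM per kb with DMSO and 696, 590 and 753 CPM per kb with urolithin A. Of that sum Tnfrsf9 made 19.0% ± 1.17 with DMSO and 12.3% ± 1.17 with urolithin A, and Tnfrsf8 5.75% ± 0.0708 and 2.18% ± 0.150. The share of Tnfrsf18 was 27.6% ± 1.06 and 34.9% ± 2.05, while that of Tnfrsf4 was 37.8% ± 1.24 and 37.5% ± 0.554. Shares of one sum are tied to each other, so one share moves with the others.

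Urolithin A library b stood low for these receptors. It had the lowest of the 3 urolithin A values for 7 of 8, all except Cd27, for which it had the highest. Over all genes tested it was the lowest of the 3 for 39.0% and the highest for 39.8%. Library c had the highest value for 5 of the 8, against 31.7% of all genes. In the same library b Tnf, at 38.1 CPM, and Lta, at 43.2 CPM, were below libraries a and c (58.1 and 57.6 CPM for Tnf, 68.0 and 73.4 CPM for Lta). The summed T cell markers in library b, 2446 CPM, lay between those of the other 2, and its Rn18s share was 0.887%. Without library b the log2 fold changes ran from -1.50 for Tnfrsf8 to 0.74 for Tnfrsf14. Those of Tnfrsf4, Tnfrsf18 and Tnfrsf25 were then -0.13, 0.25 and -0.0021, against -0.24, 0.11 and -0.07 with it.

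Of the 8 receptor genes 7 lay on chromosome 4, in 2 close pairs and 3 single genes. Tnfrsf1b and Tnfrsf8 were direct neighbours among the genes tested, while Gm37090 lay between Tnfrsf4 and Tnfrsf18, 1943 and 3503 bases from them. Of 832 genes tested on chromosome 4, 149 were higher and 154 lower, 36.4% in all. Ratios within a library, which do not depend on the scaling, were taken for both pairs. The ratio of Tnfrsf4 to Tnfrsf18 CPM was 1.15, 1.29 and 1.24 with DMSO and 0.972, 1.00 and 0.916 with urolithin A. The 2 groups of ratios did not overlap, although Tnfrsf4 itself and Tnfrsf18 itself did. The log2 ratio was 0.30 ± 0.08 and -0.05 ± 0.07, a difference of -0.35 (exact two-sided permutation p = 0.1, the smallest that 3 against 3 libraries can give). The ratio of Tnfrsf8 to Tnfrsf1b was 1.96, 1.91 and 1.91 with DMSO and 0.843, 0.753 and 0.781 with urolithin A, a log2 difference of -1.28 (exact permutation p = 0.1). With 3 libraries a group neither difference in ratio could reach 0.05.

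**Figure D3:**
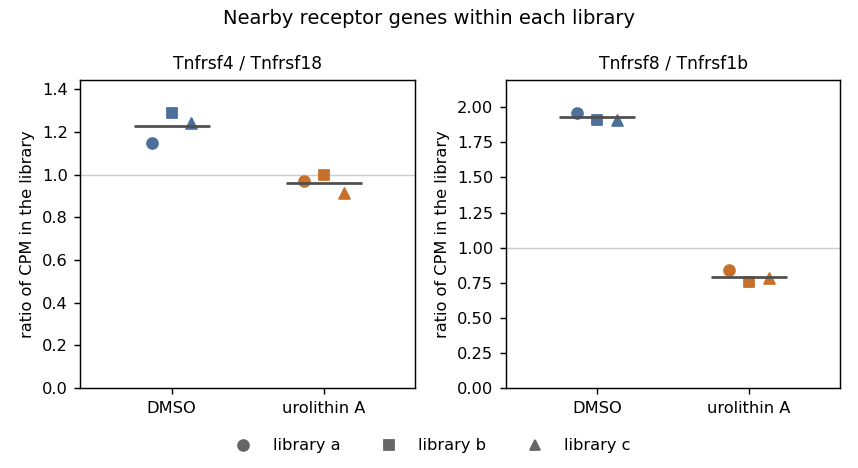
Ratio of CPM within each library (y axis, from 0) for the nearby pairs Tnfrsf4 to Tnfrsf18 and Tnfrsf8 to Tnfrsf1b, one point per library with the mean as a line. The DMSO ratios lie above the urolithin A ratios in both pairs, at 1.15 to 1.29 against 0.916 to 1.00 and at 1.91 to 1.96 against 0.753 to 0.843.

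Genes beside the receptors moved in several ways. Park7, which lies 124 bases from Tnfrsf9 in the table's coordinates and encodes the oxidative stress protein DJ-1, fell by 0.42 ± 0.07 on the log2 scale (limma BH-adjusted p = 5.48e-04). Espn, an actin bundling protein gene 211 bases beyond Tnfrsf25, fell by 0.70 ± 0.08 (limma BH-adjusted p = 1.03e-05). Vps13d, 18457 bases from Tnfrsf1b, was higher at 0.34 ± 0.09, while Sdf4, 232 bases before Tnfrsf4, did not pass (-0.14 ± 0.06, adjusted p = 0.098). Both flanking genes of Tnfrsf14, Prxl2b and Pank4, were lower (-0.60 ± 0.19 and -0.29 ± 0.08), opposite to Tnfrsf14.

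The transcripts whose pattern over the 6 libraries was most like that of each receptor that passed were picked by Pearson r of log2 CPM among 9941 genes of mean CPM 5 or more. For Tnfrsf9 they were Aldh9a1, Timm44 and Lrp8 (r of 0.9982 to 0.9991). For Tnfrsf8 they were Hmga1, Imp3 and Sars (0.9986 to 0.9987), for Tnfrsf1b Dnlz, Safb and Adam19 (0.9983 to 0.9992), for Tnfrsf14 Parp3, Fam193a and Acad11 (0.9941 to 0.9980), and for Cd27 Arhgef3, Acpp and Pdlim4 (0.9894 to 0.9965). Since the 6 points fall into 2 groups, a high r follows from any shared difference between the groups, and these values are a description. The r does not measure the size of a change. Arhgef3 had a log2 fold change of 0.07 against 0.31 for Cd27, and Imp3 -0.36 against -1.64 for Tnfrsf8. Others were closer in size, such as Dnlz at -0.33 against -0.36 for Tnfrsf1b.

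The CD30 ligand transcript rose while that of CD30 fell, the OX40 ligand transcript rose, and that of 4-1BB ligand was lower. Of 11 genes tested for ligands and other partners, 5 were higher and 2 lower, against 33.7% of all genes called. Their log2 fold changes ran from -0.66 to 4.11 around a median of 0.31. The list also holds Btla, Cd160 and Grn, which are not TNF family ligands, and Btla and Grn were among the higher genes. Tnfsf15, another of the 5 higher genes, had 2 to 9 counts per library with DMSO. It reached the count minimum in the urolithin A libraries only, so its test rests on their being high. Tnfsf8, the CD30 ligand, was at 27.7, 29.8 and 30.0 CPM with DMSO and at 164, 178 and 169 CPM with urolithin A, 5.82-fold higher (log2 fold change 2.54 ± 0.08, limma BH-adjusted p = 6.88e-11). Its receptor fell 3.09-fold in the same libraries. Tnfsf4, the OX40 ligand, rose 17.2-fold (4.11 ± 0.14), to 80.7 to 93.6 CPM, while OX40 itself did not pass. Tnfsf9, the 4-1BB ligand, was low, at 2.85 to 4.06 CPM with DMSO and 1.98 to 2.94 CPM with urolithin A, on 35 to 73 counts. The groups overlapped. It passed at -0.66 ± 0.23 (limma BH-adjusted p = 0.0364), but not in 7 of 16 alternatives (highest adjusted p = 0.153).

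**Figure D4:**
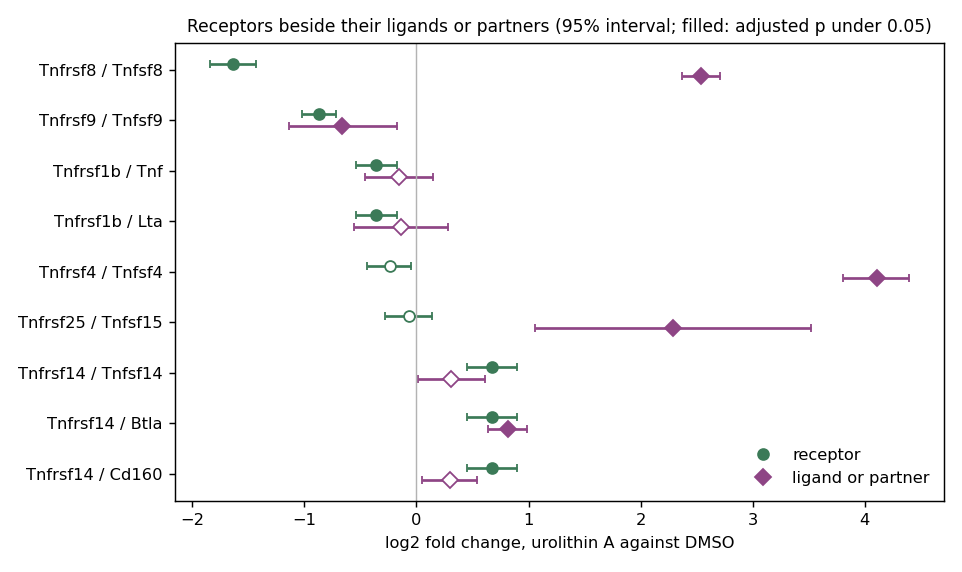
Log2 fold change of urolithin A against DMSO (x axis) with 95% interval for each receptor (circles) beside its ligand or partner (diamonds), filled where the adjusted p was under 0.05. Tnfrsf8 at -1.64 and Tnfsf8 at 2.54 point in opposite directions, while Tnfrsf9 and Tnfsf9 are both lower.

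For TNFR2, the ligand genes Tnf and Lta had log2 fold changes of -0.16 ± 0.14 and -0.14 ± 0.18 (limma BH-adjusted p = 0.42 and 0.603). Ltb, which forms a membrane heterotrimer with the Lta product and signals through another receptor, fell by 0.46 ± 0.08. For HVEM, Btla was at 58.2, 64.9 and 67.9 CPM with DMSO and at 108, 120 and 108 CPM with urolithin A, 1.76-fold higher (0.82 ± 0.08, limma BH-adjusted p = 3.33e-06). So HVEM and its inhibitory partner BTLA were higher together, while Tnfsf14, which encodes LIGHT, and Cd160 did not pass (0.31 ± 0.14 and 0.30 ± 0.11, limma BH-adjusted p = 0.106 and 0.0587). Tnfsf15, the DR3 ligand, was at 0.116 to 0.477 CPM with DMSO and 0.794 to 2.34 CPM with urolithin A, on 2 to 45 counts (change on the log2 scale 2.29 ± 0.57, limma BH-adjusted p = 0.00714), and it missed the threshold without DMSO b and urolithin A a (0.0639). Its value ran from 0.86, in the trend fit on log2 of CPM plus 1, to 2.78 over the 12 of 16 alternatives that tested it. It was under the count minimum with the stricter filter and without any one urolithin A library. The GITR ligand gene Tnfsf18 had 1 count in all 6 libraries together and was not tested, and the deposited table held no gene named Cd70.

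Adaptors and proximal signalling proteins carry the receptors' signal. Of their 17 genes 5 were higher, none lower and 12 not called, with a median log2 fold change of 0.16. Of all genes 33.7% were called, so most genes at large were not called either. Map3k7, which encodes the kinase TAK1, rose from 173 ± 8.46 to 347 ± 16.1 CPM (1.01 ± 0.07, limma BH-adjusted p = 1.03e-07). Traf1, an adaptor that NF-kB is known to induce and that binds 4-1BB among others, rose 1.47-fold, from 73.1 ± 6.16 to 107 ± 4.21 CPM. Traf2 and Traf3, the adaptors most of these receptors share, had log2 fold changes of 0.04 ± 0.09 and 0.07 ± 0.08 (limma BH-adjusted p = 0.764 and 0.552). With urolithin A library b left out 9 of the 17 passed, when 5140 of 14064 genes tested did, and with sample quality weights 8, when 5865 of 14444 did.

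Among 12 NF-kB subunit and activating kinase genes 2 were higher and 1 lower, with a median of 0.14, against 33.7% of all genes called. Rel, the c-Rel subunit of lymphocytes, rose from 19.2 ± 1.04 to 38.2 ± 1.74 CPM (1.00 ± 0.09, limma BH-adjusted p = 1.63e-06). Malt1, a protease of antigen receptor signalling, had a log2 fold change of -0.44 ± 0.08. Map3k14 and Nfkb2, the kinase and the subunit of the noncanonical pathway that OX40, CD27 and TNFR2 are known to engage, did not pass (0.13 ± 0.10 and 0.24 ± 0.11, limma BH-adjusted p = 0.357 and 0.126). Both passed without urolithin A library b (0.26 and 0.37, limma BH-adjusted p = 0.0118 and 7.60e-04), and 7 of the 12 genes then passed, as did 7 with sample quality weights, settings under which more of all genes passed too.

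Of 12 feedback inhibitors and atypical regulators of NF-kB 7 were higher and 3 lower, with a median log2 fold change of 0.36. Among all genes tested 17.7% were higher and 16.0% lower. N4bp1, an inhibitor that binds ubiquitin, rose by 0.66 ± 0.07, and Cyld, a deubiquitinase, from 234 ± 6.01 to 333 ± 14.1 CPM (0.51 ± 0.07, limma BH-adjusted p = 4.51e-05). Nfkbid, an atypical nuclear regulator, had a log2 fold change of -0.47 ± 0.09. With libraries scaled to their total count alone 6 of the 12 passed, when 3169 of all genes did in place of 4871.

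Of 10 survival genes known downstream of these receptors 4 were higher and none lower, with a median of 0.21. Of all genes 33.7% passed, 17.7% higher and 16.0% lower. Xiap, a caspase inhibitor, rose from 117 ± 6.58 to 173 ± 12.3 CPM (0.57 ± 0.08, limma BH-adjusted p = 5.94e-05). Bcl2a1b, a BCL2 relative, was at 2.71 ± 0.496 and 4.25 ± 0.362 CPM. It has near-identical copies, so its counts are uncertain, and it missed the threshold in 4 of 16 alternatives. The number of survival genes that passed was 2 without DMSO library a, and 1 without DMSO library c, without urolithin A library a, or without DMSO b and urolithin A a. Fewer of all genes passed there too, in that order 3703, 3932, 3885 and 2666, against 4871 in the reported fit.

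**Figure D5:**
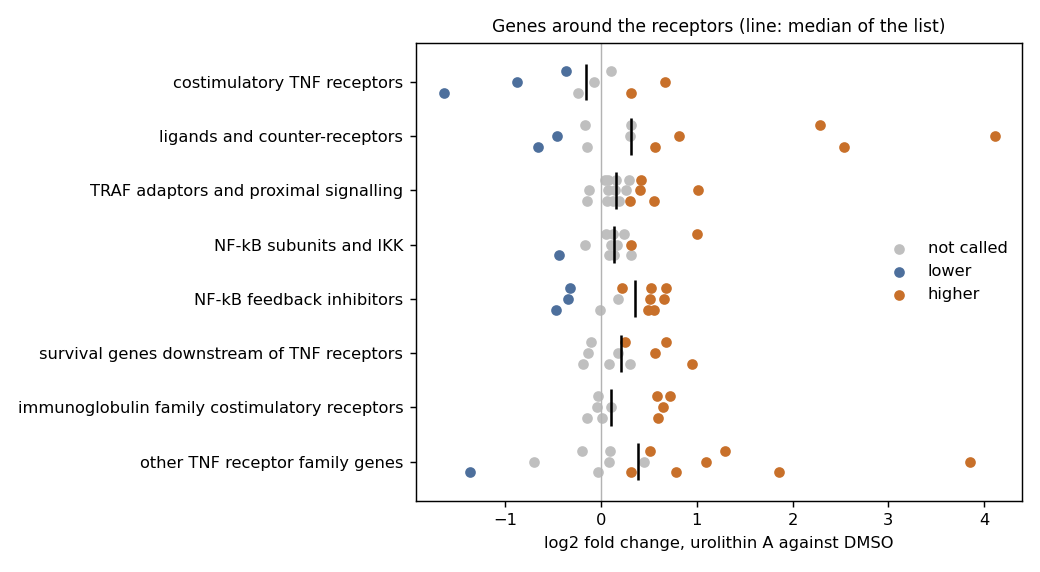
Log2 fold change of urolithin A against DMSO (x axis) of each tested gene in the receptor list and 7 lists around it, coloured by call, with the median of each list as a line. The receptor list has the lowest median, -0.16, and the medians of the other 7 lists lie between 0.11 and 0.39.

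Costimulatory receptors of the immunoglobulin family and other TNF receptors gave these counts. Over all genes tested 33.7% passed, 17.7% higher and 16.0% lower. Of 9 immunoglobulin family receptors 4 were higher and none lower, with a median log2 fold change of 0.11. Cd96 and Cd226, which share ligands of the nectin family, rose by 0.72 ± 0.08 and 0.60 ± 0.10. Of 14 other TNF receptor family genes 7 were higher and 1 lower, with a median of 0.39. The death receptor gene Fas rose by 1.86 ± 0.10 and Eda2r, the receptor of an ectodysplasin, by 3.85 ± 0.20, both known p53 targets. Tnfrsf21 had a log2 fold change of -1.36 ± 0.45 at 1.05 ± 0.0477 and 0.460 ± 0.339 CPM, and it missed the threshold in 7 of 15 alternatives. Without DMSO library b, or without DMSO library c, 5 of these other TNF receptors passed, when 3485 and 3932 of all genes did in place of 4871.

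Since regulatory T cells carry GITR, OX40, TNFR2 and 4-1BB, their markers are set beside the receptors. Foxp3, their lineage factor, was at 2.90, 2.23 and 2.02 CPM with DMSO and 2.45, 2.61 and 2.71 CPM with urolithin A (change on the log2 scale 0.13 ± 0.22, 95% interval -0.34 to 0.60, limma BH-adjusted p = 0.686). Of 10 regulatory T cell markers 3 were higher and 2 lower, while 17.7% of all genes were higher and 16.0% lower. Their summed level was 1266 to 1368 CPM with DMSO and 1077 to 1170 CPM with urolithin A, most of it from Ctla4 (635 ± 36.6 and 462 ± 60.8 CPM) and Il2ra, genes that other activated T cells express too. Nrp1 and Capg rose by 1.87 ± 0.13 and 0.31 ± 0.08, and Capg missed the threshold in 2 of 16 alternatives. Of 10 T cell markers 2 were higher and 2 lower. Among them Cd247 rose by 0.34 ± 0.07 and Cd4 by 0.26 ± 0.07, and Lck had a log2 fold change of -0.25 ± 0.08. Lck missed the threshold in 6 of 16 alternatives, Cd4 in 4 and Cd247 in 1. Cd8a did not pass (0.16 ± 0.07, limma BH-adjusted p = 0.0822). The natural killer cell markers, of which activated CD8 T cells share several, summed to 206 to 214 and 226 to 236 CPM, with Klrk1 and Nkg7 higher (0.46 ± 0.08 and 0.30 ± 0.09), Gzma lower (-0.67 ± 0.15) and Ncr1 under the count minimum. Nkg7 missed the threshold in 5 of 16 alternatives. Of the 5 myeloid and dendritic cell markers tested 2 were higher and none lower. Mpeg1 was higher by 1.65 ± 0.18 and Zbtb46 by 0.71 ± 0.19, at 2.36 ± 0.0730 and 3.33 ± 0.420 CPM with DMSO. Zbtb46 missed the threshold in 3 of 16 alternatives. Xcr1 (-0.76 ± 0.28), Fcer1g (-0.41 ± 0.39) and Cd68 (0.35 ± 0.18) did not pass (limma BH-adjusted p = 0.0527, 0.448 and 0.151). Lyz2, Csf1r, Itgam and Adgre1 were under the count minimum. The part of these cell types in the receptor values was not tested.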

How the data were processed

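RNA was measured in 6 libraries, 3 per group. Per the submitters' processing notes, bcl2fastq 2.20.0.422, FastQC, STAR 2.5.2a with mm10 and DESeq2 were used, and per the labels' protocols a stranded mRNA kit. No source used here names the counting program, its strand setting or its annotation. The deposited values are whole numbers written with a decimal comma and with no unit named. They were read as counts per gene, although the unit is recorded as other. Both deposited files hold the same values and 1 was used, with 3 per-library columns that match no labelled sample left out.

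A gene was tested where 3 or more libraries reached the CPM that equals 10 counts at the median library size and its counts summed to 15 or more, giving 14444 genes. Scaling was by trimmed means of M values (own code, trimming 30% of M and 5% of A at either end). Log2 fold changes came from limma 3.58.1 (R 4.3.3; voom with offset 0.5, lmFit, robust eBayes) over all genes, with adjusted p under 0.05 as the threshold and SE the moderated standard error. Because of the recorded unit no count model was run. Values are means ± SD of 3 libraries. The procedure was also run on simulated counts. The settings and outcome of that run are not given here, so no error rate for these data is drawn from it. Members, gene lists, tests and the rule for naming genes (all receptors, from each list the 2 smallest p in its main direction plus 1 called the other way, and 16 by name) were chosen with earlier results of these data known. Il2ra, Lta, Grn, Btla, Cd160, Xcr1, Fcer1g, Cd68 and the flanking genes were named after their values were seen. One gene that the rule names is not reported here. Alternatives were 2 scalings, 2 filters, 2 trend fits (log2 of CPM plus 1 or 0.1), quality weights, removal of 3 ribosomal RNA genes, the replicate letter as a block, each library left out, and both libraries with most Rn18s left out.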

Additional observations from a re-analysis of the deposited data

How the results depend on the processing

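Over 16 alternatives Tnfrsf8, Tnfrsf9 and Tnfrsf14 kept their direction and call in every one. Scaling to total count alone moved the median of all genes to 0.10, called 3169 genes in place of 4871 (70.6% of them higher, against 52.6%), ended the call of Tnfrsf1b (-0.26) and gave Tnfrsf25 a value of 0.02 in place of -0.07. Without DMSO b and urolithin A a 2666 genes passed and Cd27 (0.33) lost its call. Tnfrsf4 passed with no filter (-0.25) and with quality weights (-0.19). With quality weights 5865 genes passed, and with 1 library left out 3485 to 5140. With 1 library left out, Tnfrsf4 ran from -0.32 to -0.13, Tnfrsf18 from -0.004 to 0.25 and Cd27 from 0.25 to 0.37, and Tnfrsf25 from -0.12 to -0.0021. With 1 library left out Tnf ran from -0.28 to 0.05 (without urolithin A b) and Traf2 from -0.03 (without urolithin A a) to 0.14, with -0.02 without DMSO c. Where a call changed, the cause was not tested. Libraries of the same letter did not deviate together from their group means (r of 0.0749, -0.144 and -0.0827 for a, b and c), and no library correlated best with its own letter, so the letters were not taken as pairs. With the replicate block 4496 genes and the same number of receptors, 5, passed. The difference in the Tnfrsf4 to Tnfrsf18 ratio ran from -0.39 to -0.31 with 1 library left out, and that of Tnfrsf8 to Tnfrsf1b from -1.33 to -1.25. Tnfrsf14 and Tnfrsf25 had the fewest counts of the receptors, 206 to 555 per library.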
